A study of Mus musculus with 6 samples.

Results

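Estrogen-related receptors (ERRs) and the PGC1 coactivators that bind them were followed in mouse hypothalamus as 5 genes: the receptor genes Esrra, Esrrb and Esrrg, and the coactivator genes Ppargc1a and Ppargc1b. They were taken by symbol, as the known members of both families, and all 5 were among the 24513 genes of the count tables. RNA came from the hypothalamus of 3 NS-DADm and 3 wild-type (WT) mice, all C57BL/6 and 3 to 4 months old, with 1 library per mouse. The labels do not spell out the genotype; from general knowledge of the line, NS-DADm mice carry point mutations in the deacetylase-activating domain of the corepressors NCOR1 and SMRT in all tissues, so that these proteins no longer activate the histone deacetylase HDAC3. The comparison asks how transcript levels in hypothalamus differ when that activation is lost.

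ERRs are orphan nuclear receptors: they bind DNA and can be active without a hormone. PGC1alpha and PGC1beta, encoded by Ppargc1a and Ppargc1b, dock on them and recruit activating enzymes, and together they raise the transcription of genes for mitochondrial respiration and fat oxidation. In brain, PGC1alpha is known for its high level in neurons that express parvalbumin. NCOR1 is known to counteract ERRalpha and PGC1alpha in mouse muscle, and HDAC3 to act with ERRalpha in mouse brown fat.

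The promoters of Ppargc1a and Esrra are shown because these were the most abundant coactivator and the most abundant receptor per exon length. Each runs from 250 bases before to 50 bases after a transcript start in RefSeq (GRCm38.p6), 5′ to 3′ on the gene's own minus strand, and capitals mark the sequence TGACG on either strand, the core of sites bound by the cAMP-responsive factor CREB, through which the Ppargc1a promoter is known to respond to cAMP.
Ppargc1a, chr5:51567676-51567975: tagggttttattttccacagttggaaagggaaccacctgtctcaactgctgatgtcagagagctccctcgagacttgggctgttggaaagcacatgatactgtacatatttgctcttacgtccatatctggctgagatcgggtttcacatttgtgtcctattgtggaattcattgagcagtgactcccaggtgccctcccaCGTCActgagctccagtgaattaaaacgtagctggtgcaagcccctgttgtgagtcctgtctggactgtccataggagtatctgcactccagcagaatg
Esrra, chr19:6921759-6922058: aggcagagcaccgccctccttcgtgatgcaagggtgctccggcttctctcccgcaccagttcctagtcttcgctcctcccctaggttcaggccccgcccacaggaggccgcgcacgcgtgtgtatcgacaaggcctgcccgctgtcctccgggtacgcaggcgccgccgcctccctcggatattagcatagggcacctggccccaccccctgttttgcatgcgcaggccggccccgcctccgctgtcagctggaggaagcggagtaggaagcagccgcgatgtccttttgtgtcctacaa
The Ppargc1a window held 1 such core, which began at position -49 with the start counted as 1, and the Esrra window held 0. In all, TGACG stood in 20.8% of 32851 promoters of that length. The full site TGACGTCA was in 0 of 8 windows of Esrra, Esrrb, Esrrg and Ppargc1a, against 1.79% of all promoters. Whether the core at -49 serves the response to cAMP was not tested. The ERR element TNAAGGTCA, searched on both strands, was found in 0 of 8 promoter windows of Esrra, Esrrb, Esrrg and Ppargc1a, against 1.28% of all promoters, and the table held no window for Ppargc1b. It was also in 0 of 36 windows of the 27 matched genes, of 33, in the list of ERR and PGC1 targets described further on, whereas TGACG stood in 19 of these 36, or 52.8%. These shares describe letters in short windows, some of which belong to the same gene, and were not tested.

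None of the 5 genes passed the threshold between NS-DADm and WT hypothalamus (edgeR quasi-likelihood test, Benjamini-Hochberg (BH) adjusted p under 0.05). Over all genes, 104 of 15894 did, or 0.654%. At an unadjusted p under 0.05 the edgeR test also counted 0 of the 5 genes, against 10.9% of all tested genes, and the DESeq2 Wald test and limma voom counted 0 as well. The 3 libraries of one group lay apart from the 3 of the other for 0 of the 5 genes, against 16.8% of all tested genes. All 5 passed the filter on low counts, and 3 of the 5, the receptors, were fitted below 0, against 48.4% of all tested genes. Levels below are normalised read counts per 1e6 reads on genes (CPM), and fold changes are those of NS-DADm over WT with 95% intervals.

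Esrra encodes ERRalpha, the receptor best known for its control of mitochondrial genes (chromosome 19, 6910977 to 6921813, minus strand, GRCm38). It measured 29.9, 26.7 and 26.7 CPM in NS-DADm 1, 2 and 3, against 35.0, 28.2 and 30.2 CPM in WT 1, 2 and 3. WT 1 was the highest library, and NS-DADm 1 lay among the WT values, so the groups overlapped. The fold change was 0.893 (0.788 to 1.01), or -0.16 ± 0.08 on the log2 scale (SE; edgeR, BH adjusted p = 0.52). Exons of Esrra share 73 bases with the opposite-strand gene Trmt112, and reads there cannot be assigned without a stated strand setting. They also share 91 bases with the microRNA gene Mir6990 on the same strand, which no strand setting separates.

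Esrrg encodes ERRgamma, a receptor of tissues with high energy use such as heart and brain (chromosome 1, 187608791 to 188214885, plus strand). Its levels were 31.5, 27.9 and 28.7 CPM in NS-DADm 1, 2 and 3, against 29.6, 31.6 and 32.9 CPM in WT 1, 2 and 3. NS-DADm 1 and WT 1 kept the groups from separating. The fold change was 0.935 (0.843 to 1.04; edgeR, BH adjusted p = 0.68). RefSeq lists 4 promoter windows for Esrrg, and counts per gene do not tell which of them was in use.

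Esrrb, for ERRbeta, which is known for its part in pluripotent cells and the inner ear (chromosome 12, 86361117 to 86521628, plus strand), was the least abundant of the 5. It had 67, 45 and 57 reads in NS-DADm 1, 2 and 3, against 77, 56 and 52 reads in WT 1, 2 and 3. These were 2.74, 1.63 and 2.17 CPM in NS-DADm 1, 2 and 3, against 2.82, 2.05 and 1.97 CPM in WT 1, 2 and 3. Replicate 1 was the highest library of either group. The fold change of 0.951 had the widest interval of the 5 genes, 0.689 to 1.31 (edgeR, BH adjusted p = 0.95), and the direction was not settled: the log2 fold change was -0.07 with 6 libraries, 0.10 without NS-DADm 2 and 0.11 without WT 1.

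Ppargc1a was the most abundant of the 5 in reads and had the smallest coefficient of biological variation in the fit, 4.78% (chromosome 5, 51454250 to 51567726, minus strand). It measured 64.3, 62.8 and 66.6 CPM in NS-DADm 1, 2 and 3, against 61.2, 64.3 and 65.0 CPM in WT 1, 2 and 3. The ranges of both groups lay almost on top of each other. Its fold change of 1.02 had the narrowest interval, 0.941 to 1.10 (edgeR, BH adjusted p = 0.92). The coefficient of variation of its CPM was 2.96% among NS-DADm mice and 3.19% among WT mice.

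Ppargc1b, encoding PGC1beta, had the largest fitted change of the 5 (chromosome 18, 61298136 to 61400431, minus strand). It measured 16.6, 12.02 and 13.6 CPM in NS-DADm 1, 2 and 3, against 11.9, 12.3 and 12.04 CPM in WT 1, 2 and 3. NS-DADm 1 and 3 were above every WT library, whereas NS-DADm 2 lay within the WT range. The NS-DADm mice therefore differed among themselves, with a coefficient of variation of 16.6%, against 1.51% in WT mice. The fold change was 1.16 (0.988 to 1.37), or 0.22 ± 0.11 on the log2 scale (SE; edgeR, BH adjusted p = 0.51). By unadjusted p, Ppargc1b ranked 2100 and Esrra 2201 of 15894 genes. Leaving out NS-DADm 1 brought the log2 fold change of Ppargc1b to 0.09, and leaving out NS-DADm 2 brought it to 0.32.

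**Figure D1:**
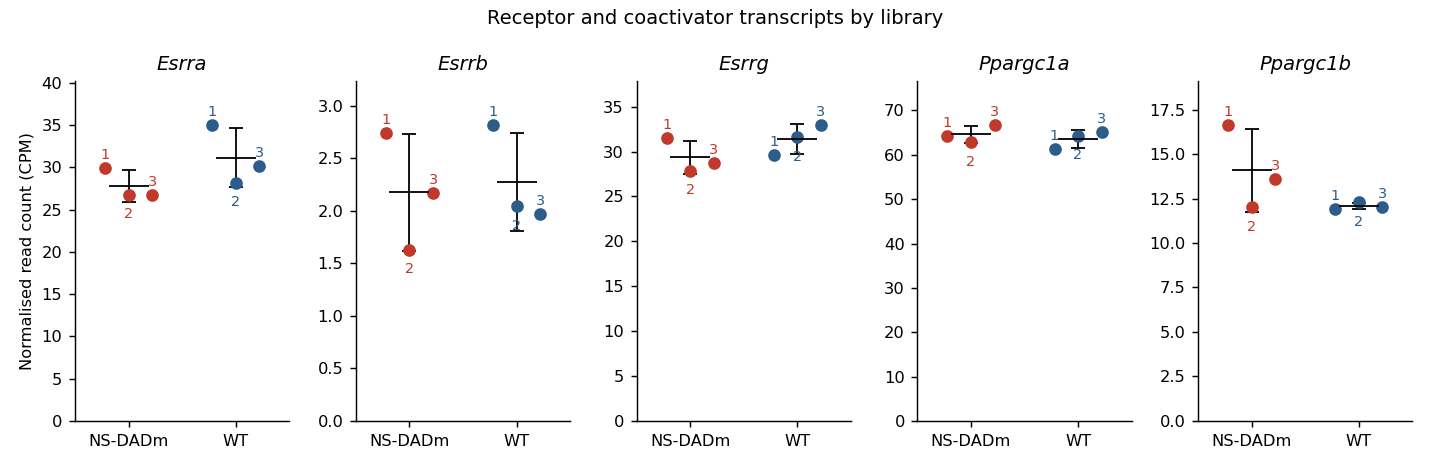
Normalised read counts (CPM, linear axes from 0) of the 5 genes in each library, NS-DADm in red and WT in blue; numbers are the replicate, horizontal bars the mean and whiskers the SD of 3 mice. The groups overlap for every gene, and Ppargc1b in NS-DADm 1 stands at 16.6 CPM against 11.9 to 12.3 CPM in WT.

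**Figure D2:**
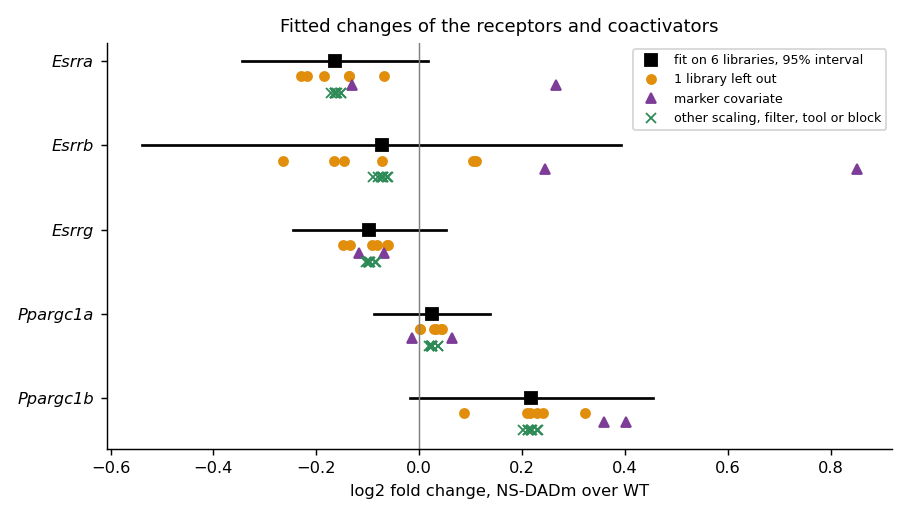
Fitted log2 fold changes of NS-DADm over WT (squares, with 95% intervals as lines) and the values of 16 alternative fits below each square. All 5 intervals include 0. The log2 value of Esrrb runs up to 0.85 and that of Esrra up to 0.27 with the mean of thalamus markers as a covariate.

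Levels of different genes were set side by side per kilobase of exon. Ppargc1a came first, with 9.80 ± 0.29 CPM per kb in NS-DADm mice, against 9.63 ± 0.31 CPM per kb in WT mice (mean ± SD, n = 3 each). Esrra followed with 6.33 ± 0.43 and 7.09 ± 0.79 CPM per kb in NS-DADm and WT mice, and then Esrrg with 4.73 ± 0.30 and 5.05 ± 0.27 CPM per kb. Ppargc1b reached 3.53 ± 0.58 CPM per kb in NS-DADm mice, against 3.03 ± 0.046 CPM per kb in WT mice. Esrrb stayed at 0.360 ± 0.092 and 0.377 ± 0.077 CPM per kb in NS-DADm and WT mice. On this scale the order was the same in NS-DADm and WT mice, and the libraries of neighbouring genes did not overlap. The order at the top depended on the length used: with the longest transcript, Esrra was above Ppargc1a, at 11.2 and 12.5 CPM per kb in NS-DADm and WT mice against 9.99 and 9.82 CPM per kb for Ppargc1a. With the longest coding sequence, Esrra and Esrrg overlapped, at 21.9 ± 1.5 and 21.4 ± 1.4 CPM per kb in NS-DADm mice and 24.6 ± 2.7 and 22.8 ± 1.2 CPM per kb in WT mice.

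Among the receptors, Esrrg made up 41.0, 41.4 and 41.8% of the summed level per kb in NS-DADm 1, 2 and 3, against 36.1, 43.0 and 42.4% in WT 1, 2 and 3. WT 1, with the highest Esrra, was the lowest library. Group means were 41.4 ± 0.35% in NS-DADm and 40.5 ± 3.8% in WT mice (SD, n = 3 each; exact two-sided permutation test, p = 1; 3 against 3 cannot go below 0.1), and without WT 1 the difference turned from 0.911 to -1.28 percentage points. Among the coactivators, Ppargc1a made up 70.1, 76.0 and 74.8% in NS-DADm 1, 2 and 3, against 75.7, 76.0 and 76.6% in WT 1, 2 and 3. The low value in NS-DADm 1 goes with the high Ppargc1b count of that library. Means were 73.6 ± 3.1% in NS-DADm and 76.1 ± 0.46% in WT mice (SD, n = 3 each; exact two-sided permutation test, p = 0.2, not adjusted for the other shares and lengths tested).

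**Figure D3:**
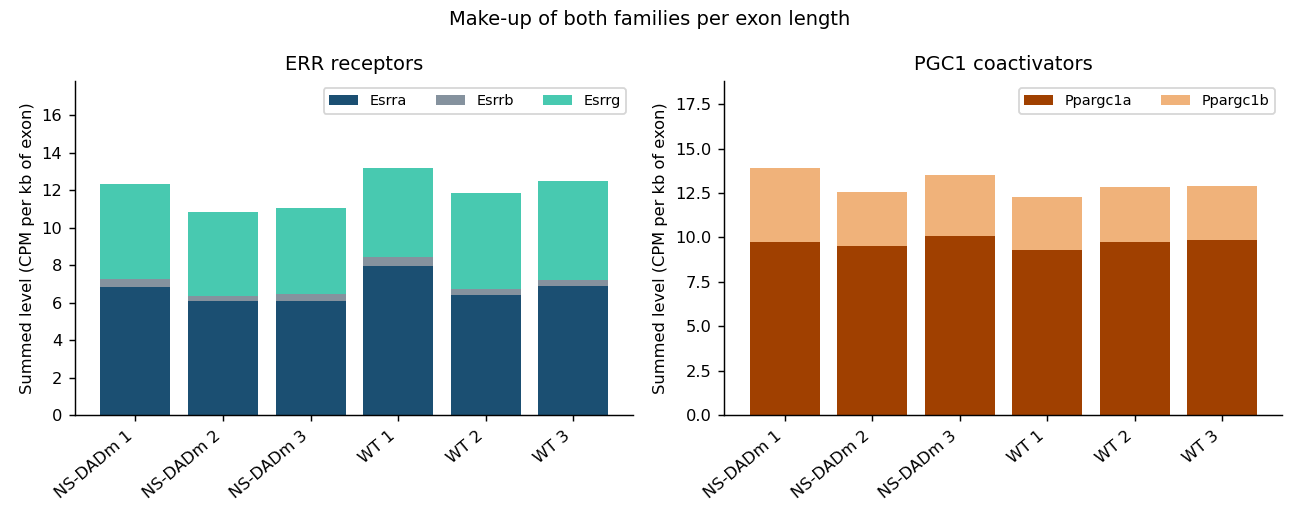
Levels per kb of union exon length, stacked by gene for the ERR receptors (left) and the PGC1 coactivators (right), 1 bar per library. Esrra and Esrrg together make up nearly all of each receptor bar, and Ppargc1a takes 70.1 to 76.6% of each coactivator bar.

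Among the receptor transcripts, Esrrb and Esrrg shared 73.7% identity over 1272 bases, Esrra and Esrrb 69.5% over 1042 bases, and Esrra and Esrrg 68.0% over 1067 bases. The predicted gene Gm14663 matched Esrrb at a higher identity over a shorter stretch, 81.5% over 720 bases, and Esrra with 71.3% over 143 bases and Esrrg with 67.4% over 724 bases. Ppargc1a matched Pprc1 with 65.2% identity over 420 bases. Ppargc1b had no match to another gene at the cutoff of this nucleotide search, which does not exclude a related gene.

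Genes whose levels ran most alike with each of the 5 over the 6 libraries were found by Pearson correlation of log2 CPM among 12004 genes (12005 for Esrrb) whose mean was 5 CPM or more. These values are a description: the points are 6 libraries that share depth and tissue, and the highest of many correlations is high by selection. Parp1, Kcnk1 and Dmtn ran closest to Esrra, with r of 0.995, 0.995 and 0.993. Esrrb was matched by Ehbp1l1, Tek and Agap2, with r of 0.996, 0.990 and 0.986. Esrrg was matched by Strn, Ube2d1 and Sec63, with r of 0.991, 0.988 and 0.986. For Ppargc1a they were Fam78b, Zfc3h1 and Ssh2, with r of 0.996, 0.992 and 0.987. Ppargc1b was matched by Dffa, Ccdc93 and Dennd1a, with r of 0.994, 0.974 and 0.971. None of these 15 genes was named for more than 1 of the 5, and none passed the threshold between the groups. Tek, the angiopoietin receptor of vessel cells, measured 13.7, 9.16 and 12.1 CPM in NS-DADm 1, 2 and 3, against 14.2, 11.3 and 11.02 CPM in WT 1, 2 and 3, the same order of libraries as Esrrb.

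Of the libraries, those of NS-DADm mice held 24173076 to 27532590 reads on genes and those of WT mice 26542194 to 27606309. The tissue label was checked with 12 hypothalamus markers, which all passed the filter. They had reads in every library, from 14 reads of Kiss1 to 4603 of Pmch. Their summed levels were 566 to 691 CPM in NS-DADm mice, against 577 to 628 CPM in WT mice. Of these 12, 9 were fitted above 0, with a median log2 fold change of 0.12 and 0 called. At an unadjusted p under 0.05 (edgeR) stood 2, both higher in NS-DADm mice. Markers of the neighbouring thalamus were lower in NS-DADm mice, with 15 of 15 fitted below 0, against 48.4% of all tested genes. Of the 15, 6 passed the threshold, against 0.573% of all tested genes called lower. Their summed levels were 770 to 884 CPM in NS-DADm mice, against 1096 to 1568 CPM in WT mice, and none was at 0. The marker lists were chosen with earlier results of these data known, so these counts are a description. Of 11 anterior pituitary markers, 7 passed the filter and all 7 were fitted above 0 with 0 called (1 at an unadjusted p under 0.05 in edgeR), and the summed level of the list was 199 to 2021 CPM in NS-DADm mice, against 39.8 to 111 CPM in WT mice, highest in NS-DADm 2; Pou1f1, the factor that defines several pituitary cell types, had 3, 47 and 5 reads in NS-DADm 1, 2 and 3, against 2, 1 and 4 reads in WT 1, 2 and 3. In such bulk RNA, the number of cells of a type in the dissected sample, neighbouring tissue included, and the RNA per cell cannot be told apart.

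Most genes known as targets of ERRs and PGC1 proteins in energy metabolism showed small differences, with a larger one for Cox6a2. Of 33 listed, 31 were tested, and 0 passed the threshold in either direction (edgeR); Cox6a2 and Fndc5 had an unadjusted p under 0.05, both fitted below 0, and the DESeq2 Wald test called 1. The median log2 fold change was -0.04, against 0.004 over all tested genes, and 29 of the 31 lay within 0.2 of 0. Groups did not overlap for 10 of the 31, or 32.3%, against 16.8% of all tested genes. NS-DADm lay above for 2, against 7.86% of all, and below for 8, against 8.93% of all. The 8 were Atp5a1 and Atp5b, of ATP synthase, Sdha and Ndufb5, of the respiratory chain, Cs, the citrate synthase, Got1, an aspartate aminotransferase, Mfn2, which fuses mitochondria, and Cox6a2, and the other pair was Fh1 and Perm1. In levels, Atp5b measured 974 ± 24 CPM in NS-DADm mice, against 1041 ± 53 CPM in WT mice (mean ± SD, n = 3 each), and Cs 257 ± 6.3 CPM in NS-DADm mice, against 269 ± 2.5 CPM in WT mice; both were named after their values were seen, as were the others outside Cox6a2, Ndufb5 and Perm1. Neuron markers had a median log2 fold change of -0.08 in the same libraries, with summed levels of 4095 to 4132 CPM in NS-DADm mice, against 4336 to 4506 CPM in WT mice. Markers of other cell types were also fitted below 0 for the most part: 7 of 8 of mature oligodendrocytes (median log2 fold change -0.20, 1 called lower), 5 of 6 of endothelial cells (-0.16), 5 of 6 of astrocytes (-0.13) and 6 of 6 of microglia (-0.11), the last with summed levels of 208 to 217 CPM in NS-DADm mice, against 232 to 241 CPM in WT mice. The part of these cell types in the target list's values was not tested.

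Cox6a2, a muscle-type subunit of cytochrome c oxidase that parvalbumin neurons also express, had the largest fitted change of the target list. It measured 2.05, 1.88 and 1.94 CPM in NS-DADm 1, 2 and 3, against 6.33, 2.78 and 4.89 CPM in WT 1, 2 and 3, from 50 to 52 reads in NS-DADm and 76 to 173 reads in WT libraries. The groups did not overlap, and the WT mice differed among themselves by more than the NS-DADm mice. The log2 fold change was -1.25 ± 0.27 (SE; edgeR, BH adjusted p = 0.092), and the call depended on the tool and the libraries, with BH adjusted p = 0.00062 in DESeq2, and in edgeR 0.035 without WT 1 and 0.00036 without WT 2. The order of the WT libraries was that of the thalamus markers, whose mean log2 CPM stood at 4.85, 4.52 and 4.82 in NS-DADm 1, 2 and 3, against 6.19, 5.44 and 5.88 in WT 1, 2 and 3. With that mean as a covariate, the log2 fold change of Cox6a2 was 0.37 (edgeR, BH adjusted p = 0.80); the marker ranges of the groups do not overlap, so in this and the other fits with that covariate group and marker cannot be told apart. Over the alternatives without a covariate it ran from -1.52 to -0.96. Fndc5, the precursor of irisin, had -0.17, Ndufb5 -0.10, and Perm1, a muscle regulator induced by PGC1 proteins and ERRs, 0.21, all short of the threshold.

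Transcription factors that PGC1 proteins coactivate were listed together with Tfam, Tfb1m and Tfb2m, which are genes of mitochondrial factors. This list gave 0 calls among 18 tested of 20 listed (edgeR; 3 at an unadjusted p under 0.05, and 1 called by DESeq2), with a median log2 fold change of 0.02. Nrf1 and Gabpa, which drive nuclear genes of the respiratory chain, had log2 fold changes of 0.02 each, and Tfam, which packages mitochondrial DNA and is needed for its transcription, 0.09; Nrf1 and Gabpa were named after their values were seen, as was Tfam. Mef2c, a neuronal and muscle transcription factor, measured 40.3, 32.3 and 37.0 CPM in NS-DADm 1, 2 and 3, against 52.7, 39.9 and 53.7 CPM in WT 1, 2 and 3. NS-DADm 1 and WT 2 overlapped. Its log2 fold change was -0.42 ± 0.12 (SE; edgeR, BH adjusted p = 0.25; DESeq2, 0.0094), and it ran from -0.54 to -0.34 over the alternatives without a covariate, with 3 of all 16 past the threshold. The fit with the thalamus covariate gave 0.26. Rxra, the dimer partner of many nuclear receptors, and Foxo1, a factor held back by insulin, had log2 fold changes of 0.12 and 0.13, and Ppard, a fatty acid receptor, of -0.22, none past the threshold. Pparg and Hnf4a, at 7 to 13 reads and 0 to 2 reads per library, did not pass the filter.

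Regulators and partners of PGC1 proteins also gave 0 calls, among 22 tested of 23 listed (edgeR; 2 at an unadjusted p under 0.05, and 0 called by DESeq2), with a median log2 fold change of -0.001. All 22 lay within 0.2 of 0. Pprc1, the remaining member of the PGC1 family, measured 39.97, 34.8 and 35.6 CPM in NS-DADm 1, 2 and 3, against 31.0, 34.2 and 33.9 CPM in WT 1, 2 and 3. Groups did not overlap, although NS-DADm 2 and WT 2 were close, and the log2 fold change of 0.15 ± 0.07 did not pass (SE; edgeR, BH adjusted p = 0.45). NS-DADm 1 was the highest of the 6 libraries for Pprc1, as it was for Ppargc1b. Crtc2 and Crtc3, partners of CREB in the induction of Ppargc1a, had 0.16 and 0.11, and the acetyltransferase gene Kat2b -0.14, none past the threshold. Sirt1, whose product deacetylates PGC1alpha, measured 23.2 ± 0.58 CPM in NS-DADm mice, against 23.4 ± 1.1 CPM in WT mice (mean ± SD, n = 3 each; named after its values were seen).

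**Figure D4:**
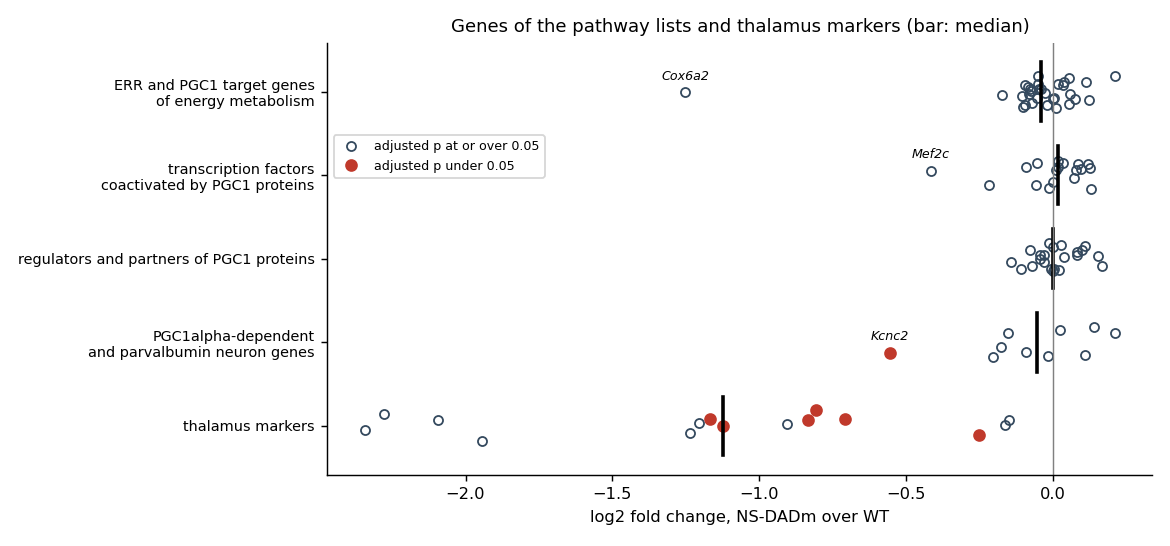
Log2 fold changes of NS-DADm over WT for the tested genes of the 4 pathway lists and of the thalamus markers, 1 circle per gene, filled where the BH adjusted p of edgeR was under 0.05; vertical bars are list medians. Most pathway genes lie near 0, Kcnc2 alone of them is filled, and the thalamus markers lie to the left with a median of -1.12.

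In the last list, genes that depend on PGC1alpha in parvalbumin neurons or mark those neurons, 1 of 10 tested genes was called, lower in NS-DADm mice (edgeR), against 0.573% of all tested genes called lower, with a median log2 fold change of -0.06. This was Kcnc2, a fast potassium channel gene (Kv3.2). It measured 110, 99.2 and 108 CPM in NS-DADm 1, 2 and 3, against 172, 138.5 and 155 CPM in WT 1, 2 and 3. No NS-DADm library reached the lowest WT library, and which cells the Kcnc2 reads came from was not tested. Of the 10 genes of this list, 6 were fitted below 0 and 4 above. Kcnc2 fell by 0.56 ± 0.07 on the log2 scale (SE; edgeR, BH adjusted p = 0.0087), lower in 3 of 3 NS-DADm libraries than in every WT library. It was not past the threshold without NS-DADm 2, NS-DADm 3 or WT 3 (edgeR, BH adjusted p = 0.099, 0.082 and 0.071). Its libraries stood in the same order as the thalamus markers, and with their mean as a covariate the log2 fold change was -0.09 (edgeR, BH adjusted p = 0.83); over all 16 alternatives the BH adjusted p ran from 7.7e-10 to 0.83.

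In the same edgeR fit on 6 libraries, the parvalbumin neuron genes other than Kcnc2 did not pass. Syt2, a fast synaptic vesicle calcium sensor that requires PGC1alpha in mouse cortex, measured 43.0, 40.04 and 36.6 CPM in NS-DADm 1, 2 and 3, against 35.9, 32.6 and 34.9 CPM in WT 1, 2 and 3. The groups did not overlap, with NS-DADm 3 and WT 1 close together, and the log2 fold change was 0.21 ± 0.07 (SE; edgeR, BH adjusted p = 0.27). Nefh, a neurofilament gene, and Inpp5a, an inositol phosphatase gene, had log2 fold changes of -0.20 and -0.18, and 0.31 and 0.32 with the thalamus covariate, none past the threshold in these fits. Pvalb itself measured 12.9 ± 1.8 CPM in NS-DADm mice, against 11.7 ± 1.4 CPM in WT mice (mean ± SD, n = 3 each; named after its values were seen).

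**Figure D5:**
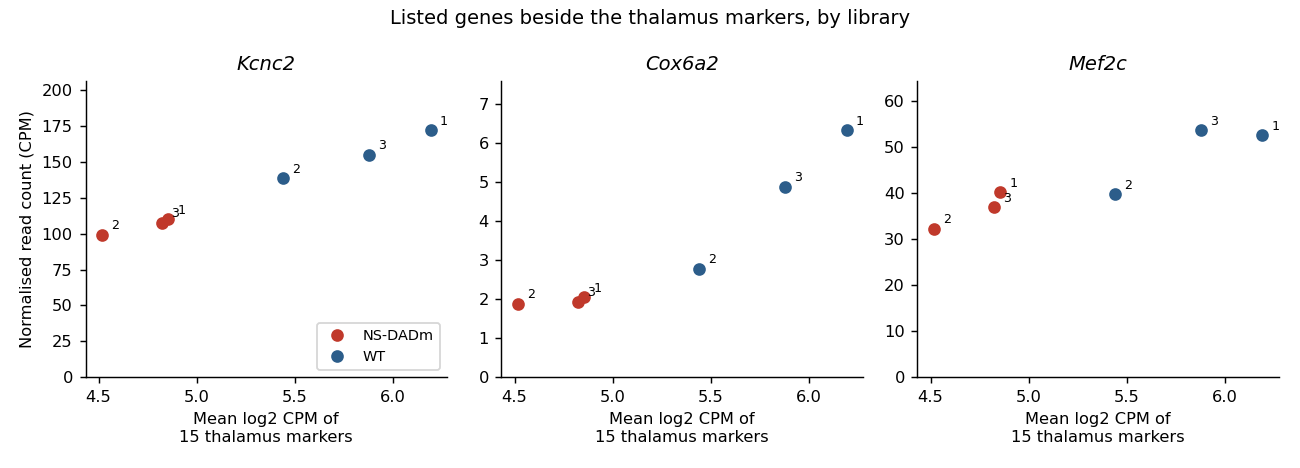
Normalised read counts (CPM, axes from 0) of Kcnc2, Cox6a2 and Mef2c in each library against the mean log2 CPM of the 15 thalamus markers, NS-DADm in red and WT in blue, numbered by replicate. NS-DADm libraries lie at 4.52 to 4.85 and WT libraries at 5.44 to 6.19 on the horizontal axis, so the marker ranges of both groups do not overlap.

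For the 5 receptor and coactivator genes the same values are given beside these markers. In WT mice, Esrra was highest and Esrrg lowest in WT 1, the library with the highest thalamus marker mean. WT 1 also had the highest mean of 8 striatum markers, at 4.80 log2 CPM, against 4.13 and 4.57 in WT 2 and 3. That striatum mean was 4.81, 4.10 and 4.08 in NS-DADm 1, 2 and 3. The part of either tissue in the values of the 5 genes was not tested. With the thalamus covariate, the log2 fold change was 0.27 for Esrra, 0.85 for Esrrb, -0.12 for Esrrg, -0.01 for Ppargc1a and 0.40 for Ppargc1b. BH adjusted p (edgeR) was 0.58 or more for each. The pituitary marker mean as a covariate gave 0.24 for Esrrb and 0.36 for Ppargc1b, neither past the threshold.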

How the data were processed

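RNA-seq measured hypothalamic transcripts in 3 NS-DADm and 3 WT mice. The authors deposited raw read counts per gene symbol. The submitters' processing notes name TopHat2 2.0.9, HTSeq and the build mm10; annotation, strand setting and HTSeq version: not given in the sources used here. The last 5 of 24518 rows were unassigned reads, left out of sizes and tests: reads outside genes were 13.3 to 14.8% of entries, ambiguous reads 1.00 to 1.06% and reads aligned more than once 14.3 to 16.5%. Within groups, library pairs differed by 3.41 to 10.4 times counting noise (chi-square per gene).

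Low counts were removed by filterByExpr; TMM factors were 0.992 to 1.01, and the counts were fitted over all 15894 genes left with the edgeR 4.0.16 quasi-likelihood test (R 4.3.3, robust, no covariate), BH adjusted and called under 0.05; 95% intervals come from the SE. The fit was run on simulated data with larger changes than those fitted for the 5 genes, so that run says nothing on detecting changes of their size. Lengths and positions are from GENCODE on GRCm38, promoters from RefSeq, and transcript identities from BLAST 2.17.0. Alternatives were other scaling, filters, DESeq2 1.42.0, limma 3.58.1, a replicate block, marker covariates, each library left out and other lengths. Named from each pathway list were called genes, then those with the smallest p, 4 to 6 a list, and the 3 genes most alike to each of the 5. The 5 genes, lists and alternatives were chosen with earlier results of these data known. Each library was 1 mouse.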

Additional observations from a re-analysis of the deposited data

How the results depend on the processing

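In all 16 alternative fits, 0 of the 5 genes passed the threshold; Esrra had an unadjusted p under 0.05 in 4 of them and Ppargc1b in 2. With the thalamus marker mean as a covariate the log2 fold change turned to 0.27 for Esrra, 0.85 for Esrrb and -0.014 for Ppargc1a, and with the pituitary marker mean to 0.24 for Esrrb; with 1 library left out, Esrrb ran from -0.26 to 0.11. The thalamus covariate also turned Cox6a2 (0.37), Fndc5 (0.23), Mef2c (0.26), Ppard (0.39), Nefh (0.31) and Inpp5a (0.32), the target list's median (0.0084) and that of the parvalbumin neuron list (0.29), which ran from -0.11 to 0.018 with 1 library left out. The median of the PGC1 regulators, close to 0, was 0.011 with upper-quartile factors, 0.012 with library totals, 0.00057 with at least 1 CPM in 3 libraries, and -0.0076 to 0.020 with 1 library left out. The share of Esrrg differed by -1.28 to 2.15 percentage points with 1 library left out.

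The count of called genes, 104, was 203 with no count filter, 282 with DESeq2, 409 with the replicate block, 8 and 0 with the thalamus and pituitary covariates, and 5 to 312 with 1 library left out: 5 without NS-DADm 2, 8 without NS-DADm 3, 10 without WT 3, 262 without WT 2 and 312 without WT 1. Calls in the target list were 1 with DESeq2, 1 with the block and 0 to 1 with 1 library left out; in the list of coactivated factors 1, 1 and 0 to 1. The block's calls there were Cox6a2 and Mef2c (BH adjusted p = 0.0025 and 0.0014). The parvalbumin neuron list had 2 calls with the block, Kcnc2 and Nefh (8.7e-06 and 0.029), 0 with either covariate and 0 to 1 with 1 library left out. Same-numbered libraries deviated from their group means with correlations of 0.13, 0.087 and -0.035, against -0.12 to 0.057 for libraries of different numbers. The pairs numbered 1 and 2 thus lay above all pairs of different numbers, whereas NS-DADm 3 and WT 3 did not correlate best with each other. The labels state no pairing, these values do not settle whether the numbers pair the mice, and the main fit has no block. With the block, 0 of the 5 genes were called. The cause of these changes was not tested. Depth limits Esrrb most, at 45 to 77 reads per library, and the intervals cover 3 animals a group.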
